A study of Homo sapiens with 6 samples.

Results

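CHK1 (gene CHEK1) is a kinase that prexasertib (Prex) inhibits, and the study treats Prex as a CHK1 inhibitor. A trial report that it cites names CHK2 (gene CHEK2) as a target as well. CHK1 was examined here together with 9 genes of the machinery that switches it on, which were ATR, ATRIP, TOPBP1, CLSPN, RAD9A, HUS1, RAD1, RAD17 and TIMELESS. These 10 genes were chosen by symbol, as the drug target with its activators, clamp and fork mediators. All 10 were among the 12305 different symbols of the expression table, and all 10 passed the filter on low values that left 11766 genes for testing.

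The study addressed how ovarian cancer cells become resistant to CHK1 inhibition. OVCAR5 is an ovarian cancer cell line grown in RPMI1640 with serum and insulin. OVCAR5R is its Prex-resistant derivative, obtained by raising the Prex concentration stepwise to 3 µM over 3 to 4 months, kept at 2 µM and then grown free of the drug for at least 4 days before use. RNA came from 3 cultures of the parental line and 3 of the resistant line, so the comparison is between 2 cell lines, neither of which had drug in the medium at harvest. Whether OVCAR5R is a single clone or a mixed population is not stated in the sources used here. Because these are bulk libraries, a smaller share of cells in a given cell-cycle phase and less RNA per cell cannot be told apart.

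When a replication fork stalls, single-stranded DNA becomes coated with RPA and recruits ATR through its partner ATRIP. The RAD17 clamp loader places the ring of RAD9, HUS1 and RAD1 (the 9-1-1 clamp) at the junction of single- and double-stranded DNA, and the clamp brings in TOPBP1, which activates ATR. Claspin (CLSPN) and the TIMELESS-TIPIN pair travel with the fork and present CHK1 to ATR. Active CHK1 then holds back origin firing and entry into mitosis by acting on the CDC25 phosphatases.

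One library stood apart before any comparison of the lines. Across the 11766 genes, log2 values of OVCAR5 replicate 2 correlated with the other 2 parental libraries at r = 0.898 and 0.883, whereas replicates 1 and 3 correlated at r = 0.955 and the resistant libraries among themselves at 0.947 to 0.963. The epithelial markers EPCAM, KRT8, KRT18 and KRT19 were all highest in that library, and the sum of their values there was 15905, against 2162 to 4132 in the other 5. EPCAM was 597 in OVCAR5 replicate 2 and 11.9 to 31.7 elsewhere. KRT19 was 1341 there and 3.09 to 10.7 elsewhere. PAX8, a Müllerian marker, was 8.38 to 11.4 in the parental libraries and 4.38 to 5.66 in the resistant ones. WT1, from the same marker list, went the other way, at 0.029 to 0.073 in the parental libraries and 0.380 to 0.727 in the resistant ones. Its values were below the filter on low values, so it was not tested. CDH1, MUC16, COL3A1, DCN, PTPRC, PECAM1 and CDH5 were not among the symbols of the table, and COL1A1 was 1.29 to 15.2. Differences between the lines are therefore also given without OVCAR5 replicate 2. What the marker profile of this library contributed to the results was not tested.

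The promoters of the drug target, its mediator and the ATR activator are shown because they differ in the E2F-type element that many S phase genes carry. Each line gives the coding strand from 120 bases before to 20 bases after the RefSeq start site on GRCh38.p14, 5′ to 3′, for CHEK1 (chr11:125626109-125626248, plus strand), CLSPN (chr1:35769959-35770098, minus strand) and TOPBP1 (chr3:133661922-133662061, minus strand). Capitals mark E2F-type elements and inverted CCAAT boxes (ATTGG).
CHEK1: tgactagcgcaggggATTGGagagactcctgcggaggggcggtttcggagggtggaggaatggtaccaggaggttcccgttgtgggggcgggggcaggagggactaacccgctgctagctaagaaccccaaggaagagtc
CLSPN: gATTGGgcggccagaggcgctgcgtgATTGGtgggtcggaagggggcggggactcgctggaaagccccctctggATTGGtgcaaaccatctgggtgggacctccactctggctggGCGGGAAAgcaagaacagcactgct
TOPBP1: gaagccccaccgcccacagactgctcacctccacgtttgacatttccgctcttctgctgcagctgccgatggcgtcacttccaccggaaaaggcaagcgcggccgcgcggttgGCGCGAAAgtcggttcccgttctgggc

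E2F-type elements were searched as TTTCCCGC, TTTCGCGC, TTTGCCGC or TTTGGCGC on either strand, within 250 bases before and 50 bases after the start site. CLSPN held one that began 5 bases before the start site, and TOPBP1 one that began 7 bases before it. For each gene the first start site listed was used. The other 7 genes with a promoter entry, CHEK1 among them, had no exact match in this window, nor in their further entries (CHEK1 and RAD17 have 3 start sites each and ATRIP 2). HUS1 had no entry in the promoter table. Of all 27305 promoters, 3.33% held such an element. CCAAT boxes, searched as CCAAT on either strand, were found in 5 of the 9 promoters (ATRIP, CHEK1, CLSPN, RAD9A and TIMELESS) and in 35.7% of all promoters. CLSPN alone of the 5 held 3 of them. RAD17 had a CCAAT box only in its further entries, 2 of its 3. These matches describe the letters of the windows and say nothing about binding in these cells.

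None of the 10 genes passed the test in OVCAR5R against OVCAR5 (limma on log2(value + 1), Benjamini-Hochberg adjusted p below 0.05), where 14 of the 11766 genes, 0.119%, passed. At an unadjusted p below 0.05 the count was also 0 of 10, against 10.4% of all genes tested. The lowest adjusted p among the 10 was 0.524, that of CLSPN. By the mean of the log2 values, 8 of the 10 were higher in OVCAR5R and 2 (RAD17 and RAD9A) were lower, while 49.2% of all genes were higher. Their median difference was 0.25 on the log2 scale, against −0.01 over all genes tested. Without OVCAR5 replicate 2 this median was 0.07, again with 0 of 10 genes called, where 29 genes, 0.246% of those tested, passed. In no gene of the 10 did the 3 resistant libraries lie wholly above or wholly below the 3 parental ones. Over all genes such separation occurred upward in 8.4% and downward in 8.18%.

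**Figure D1:**
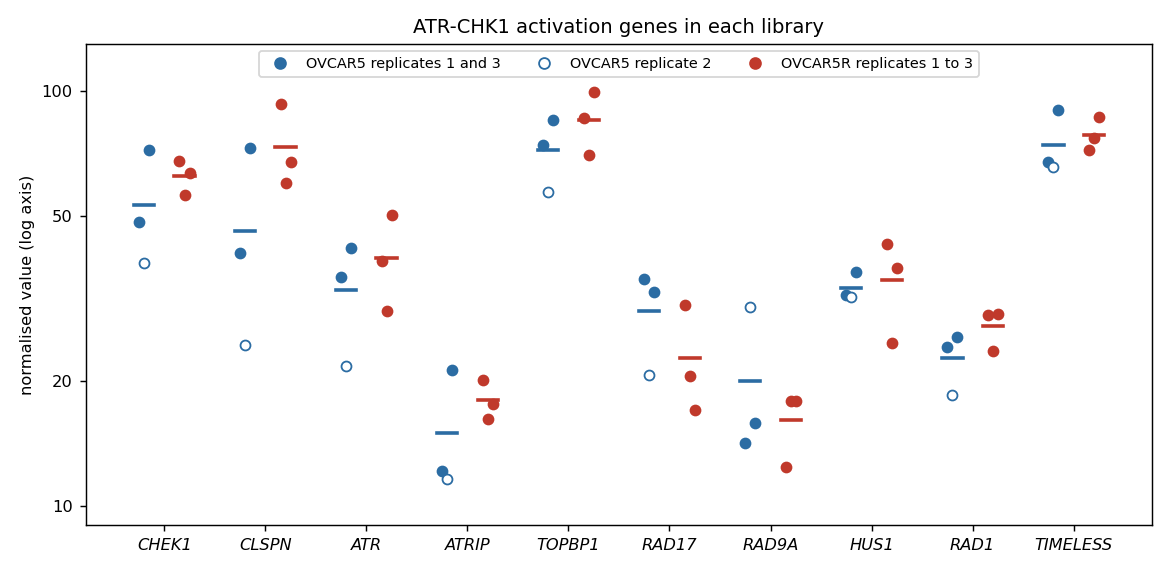
Normalised values of the 10 genes (vertical log axis, no unit) in each library, with OVCAR5 in blue, OVCAR5R in red, OVCAR5 replicate 2 as open circles and group means as horizontal bars. The libraries of the lines overlap for every gene, and the open circle is the lowest of the 6 libraries for 7 genes and the highest for RAD9A.

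CHEK1 (ENSG00000149554.12, chr11:125625136-125676255, plus strand) encodes the effector kinase and drug target. Replicates are listed in the order 1, 2 and 3 throughout. Parental OVCAR5 gave normalised values of 48.4, 38.5 and 72.3, and OVCAR5R gave 67.9, 56.1 and 63.4. The resistant libraries fell inside the parental range, whose highest and lowest values were both parental. CHEK1 differed by 0.27 on the log2 scale (SE 0.26, limma adjusted p = 0.749, n = 3 per line), a fold of 1.21 with a 95% interval of 0.799 to 1.83. Without OVCAR5 replicate 2 the difference was 0.07, with an interval of 0.716- to 1.54-fold. The drug target's transcript was thus not detectably different between the lines, and a change larger than 1.83-fold upward or below 0.799-fold lay outside the interval from all libraries.

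CLSPN (ENSG00000092853.13, chr1:35720218-35769967, minus strand) encodes claspin, the adaptor that holds CHK1 for phosphorylation by ATR, and its promoter carries the E2F-type element printed above. It showed the largest difference by size among the 10 genes. Values were 40.8, 24.5 and 73.0 in the parental libraries and 93.1, 60.1 and 67.3 in the resistant ones. Both lines covered the range from about 60.1 to 73.0, since OVCAR5 replicate 3 exceeded 2 of the resistant libraries. The log2 difference was 0.77 (SE 0.38, adjusted p = 0.524), a fold of 1.71 with a 95% interval of 0.928 to 3.15. Without OVCAR5 replicate 2, the lowest library, it was 0.40 (SE 0.31, adjusted p = 0.697).

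ATR (ENSG00000175054.14, chr3:142449235-142578826, minus strand) encodes the apical kinase. Its values were 35.6, 21.8 and 41.9 in OVCAR5 and 39.0, 29.4 and 50.4 in OVCAR5R. The parental low came from replicate 2, and the ranges overlapped from 29.4 to 41.9. The log2 difference of 0.27 (SE 0.31, adjusted p = 0.797) was 0.0029 without that library. ATRIP (ENSG00000164053.20, chr3:48446710-48467645, plus strand), the subunit that tethers ATR to RPA, had lower values of 12.2, 11.6 and 21.2 in the parental and 20.1, 16.2 and 17.6 in the resistant libraries. OVCAR5 replicate 3 was its highest library, so all 3 resistant values lay between parental ones. ATRIP differed by 0.29 (SE 0.28, adjusted p = 0.754), and by 0.15 without OVCAR5 replicate 2. ATRIP shares 1515 exon bases, 27.9% of its exon sequence, with the nuclease gene TREX1 on the same strand, so the counting may have split reads between them. TREX1 differed by −0.06 on the log2 scale (SE 0.30).

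TOPBP1 (ENSG00000163781.13, chr3:133598175-133662380, minus strand), the activator of ATR at the clamp, read 74.2, 57.1 and 85.3 in OVCAR5 against 86.2, 70.2 and 99.5 in OVCAR5R. Each resistant library was above the parental library of the same rank, but the ranges overlapped from 70.2 to 85.3. TOPBP1 differed by 0.24 (SE 0.23, adjusted p = 0.754), and by 0.08 without OVCAR5 replicate 2.

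RAD17 (ENSG00000152942.18, chr5:69369293-69414801, plus strand), the subunit that loads the clamp, was the gene with the lowest difference. Its values were 35.2, 20.7 and 32.8 in the parental libraries and 30.5, 20.6 and 17.1 in the resistant ones. OVCAR5 replicate 2 lay with the lower resistant libraries, and OVCAR5R replicate 1 lay close to the remaining parental ones. The log2 difference was −0.37 (SE 0.30, adjusted p = 0.694), a fold of 0.773 with a 95% interval of 0.479 to 1.25. Without OVCAR5 replicate 2 all 3 resistant values were below both parental values, and the difference was −0.60 (SE 0.28, adjusted p = 0.498). RAD17 overlaps TAF9 and AK6 on the opposite strand, over 9.14% and 5.05% of its exon bases. Whether strand was used in counting is not given in the sources used here.

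Among the subunits of the 9-1-1 clamp the differences were of either sign with all libraries, and within 0.12 of 0 without OVCAR5 replicate 2. RAD9A (ENSG00000172613.7, chr11:67317871-67398410, plus strand) read 14.2, 30.1 and 15.9 in OVCAR5 and 12.4, 17.9 and 17.9 in OVCAR5R, so that OVCAR5 replicate 2 lay above every other library. Its log2 difference of −0.24 (SE 0.32, adjusted p = 0.830) turned to 0.08 without that library. HUS1 (ENSG00000136273.12, chr7:47963288-47979553, minus strand) read 32.3, 31.9 and 36.6 in OVCAR5 and 42.9, 24.8 and 37.4 in OVCAR5R. The parental values lay inside the resistant range, and the difference was 0.02 (SE 0.25, adjusted p = 0.986), or −0.01 without OVCAR5 replicate 2. RAD1 (ENSG00000113456.18, chr5:34905264-34918989, minus strand) read 24.2, 18.6 and 25.6 in OVCAR5 and 28.8, 23.7 and 28.9 in OVCAR5R. Here 2 of the resistant libraries exceeded every parental one and the other did not. RAD1 differed by 0.25 (SE 0.22, adjusted p = 0.729), and by 0.12 without OVCAR5 replicate 2.

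TIMELESS (ENSG00000111602.11, chr12:56416373-56449403, minus strand), which forms the fork protection complex with TIPIN, had the narrowest interval. It read 67.5, 65.7 and 89.9 in the parental libraries and 72.1, 77.2 and 86.4 in the resistant ones, which all lay inside the parental range. The log2 difference was 0.09 (SE 0.21, adjusted p = 0.913), a fold of 1.06 with a 95% interval of 0.765 to 1.48. Its partner TIPIN read 21.8, 22.3 and 34.3 in OVCAR5 and 37.3, 33.0 and 34.1 in OVCAR5R. TIPIN differed by 0.43 (SE 0.24, adjusted p = 0.567), and by 0.33 without OVCAR5 replicate 2.

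**Figure D2:**
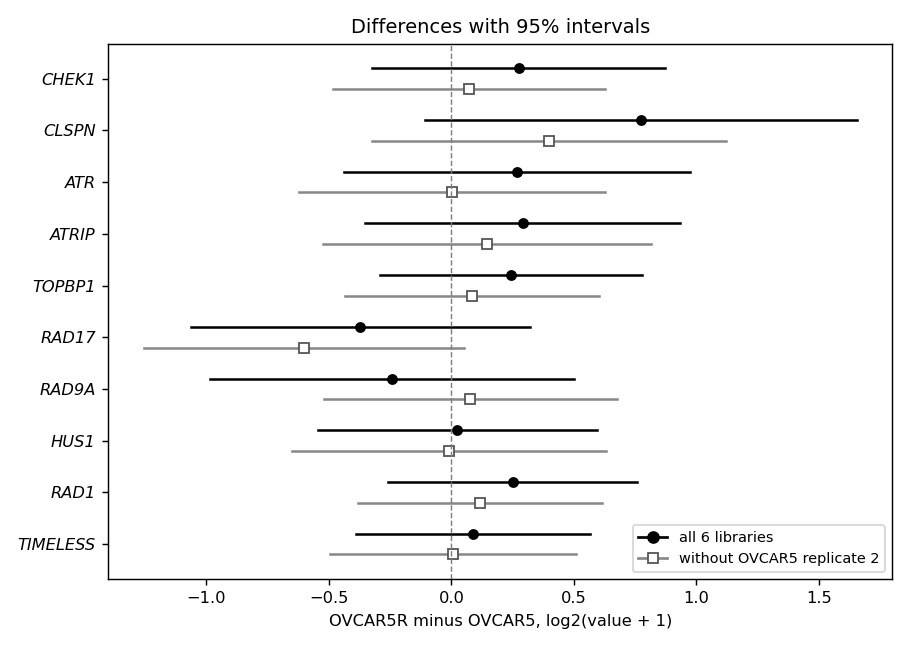
Difference between OVCAR5R and OVCAR5 on the log2(value + 1) scale for each of the 10 genes, with 95% intervals from limma, for all 6 libraries (filled circles) and without OVCAR5 replicate 2 (open squares). Every interval includes 0, and without that library all differences but those of CLSPN (0.40) and RAD17 (−0.60) lie within 0.15 of 0.

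The spread among cultures was of the size of most differences between lines. On the log2 scale the median SD of the 10 genes was 0.43 among the 3 parental libraries and 0.27 among the 3 resistant ones, against 0.34 and 0.25 over all genes tested. Between OVCAR5 replicates 1 and 3 alone it was 0.15 for the 10 genes and 0.23 over all genes. The order of the 10 against all genes in the parental line thus turned without OVCAR5 replicate 2. A median SD taken from fewer libraries runs lower, so these values cannot be set against those of the resistant libraries. For 8 of the 10 genes the parental SD was the larger, and the same held for 65.6% of all genes. OVCAR5 replicate 2 was the lowest of the 6 libraries for 7 of the 10 genes (CHEK1, CLSPN, ATR, ATRIP, TOPBP1, RAD1 and TIMELESS), where it was the lowest for 26.8% of all genes. It was the highest only for RAD9A, where 26.9% of all genes had their highest value in it.  From the size of 1 read in each library, the 10 genes corresponded to roughly 401 to 5337 reads per library, although only 64.2 to 68.1% of all values came out as whole reads to within 0.02 of a read.

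Per kilobase of the longest coding transcript, mean levels over the 6 libraries ran from 14.9 for TIMELESS to 3.60 for ATRIP. TIMELESS stood at 14.5 ± 2.64 (SD, n = 3) in OVCAR5 and 15.3 ± 1.42 in OVCAR5R. CHEK1 followed at 12.8 ± 4.18 and 15.0 ± 1.43, ahead of TOPBP1 at 11.7 ± 2.31 and 13.9 ± 2.38. CLSPN stood at 9.66 ± 5.18 in OVCAR5 and 15.4 ± 3.63 in OVCAR5R, the highest of the 10 means in the resistant line. HUS1 was at 11.5 ± 0.887 in OVCAR5, above CLSPN there, and at 11.9 ± 3.17 in OVCAR5R. RAD9A (9.47 ± 4.13 and 7.60 ± 1.50) and RAD17 (9.15 ± 2.41 and 7.03 ± 2.16) came next by the mean over all 6 libraries. ATR (4.01 ± 1.25 and 4.80 ± 1.27), RAD1 (3.95 ± 0.646 and 4.71 ± 0.523) and ATRIP (3.27 ± 1.18 and 3.93 ± 0.437) were the lowest in both lines. The range of each gene over the 6 libraries overlapped that of the next in the order of means. Within libraries, TIMELESS was above CHEK1, RAD17 above ATR and RAD1 above ATRIP in 5 of the 6. The other neighbouring pairs kept their order in 3 or 4. Differences between neighbours were not tested. Within the clamp, RAD1 was below HUS1 and RAD9A per kilobase in every library. This rests on lengths of 5770 bases for RAD1, 2935 for HUS1 and 2119 for RAD9A. Undivided, RAD1 was still below HUS1 in every library, but above RAD9A in every library except OVCAR5 replicate 2. Which transcripts the cells expressed was not examined, so all levels per kilobase depend on the choice of the longest.

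Ratios between partners, taken on values + 1, reduce the part of the spread that scales both genes in a library. In all, 7 pairs were compared by an exact two-sided permutation test, in which 3 libraries against 3 cannot give a p below 0.1. The log2 ratio of CLSPN to CHEK1 was −0.24, −0.63 and 0.01 in OVCAR5 and 0.45, 0.10 and 0.09 in OVCAR5R. All 3 resistant ratios exceeded all 3 parental ones, by 0.50 on average (exact permutation p = 0.1, adjusted over the 7 pairs 0.35). Without OVCAR5 replicate 2 the difference was 0.33, still without overlap. The TIPIN to TIMELESS ratio behaved alike, at −1.59, −1.52 and −1.37 in OVCAR5 and −0.93, −1.20 and −1.32 in OVCAR5R. It was higher in the resistant line by 0.34 (exact permutation p = 0.1, adjusted 0.35), and by 0.33 without that library. In both pairs the closest libraries of the lines differed by under 0.1.

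The remaining ratios overlapped between the lines. ATRIP to ATR differed by 0.02 (exact permutation p = 0.7) and TOPBP1 to ATR by −0.03 (exact permutation p = 0.8). They were 0.14 and 0.08 without OVCAR5 replicate 2. Within the clamp, HUS1 to RAD9A differed by 0.27 (exact permutation p = 0.7) and RAD1 to RAD9A by 0.49 (exact permutation p = 0.5). Both rested on OVCAR5 replicate 2, without which they were −0.09 and 0.04. RAD17 to RAD9A, loader to clamp, differed by −0.13 (exact permutation p = 0.9) and by −0.68 without that library.

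**Figure D3:**
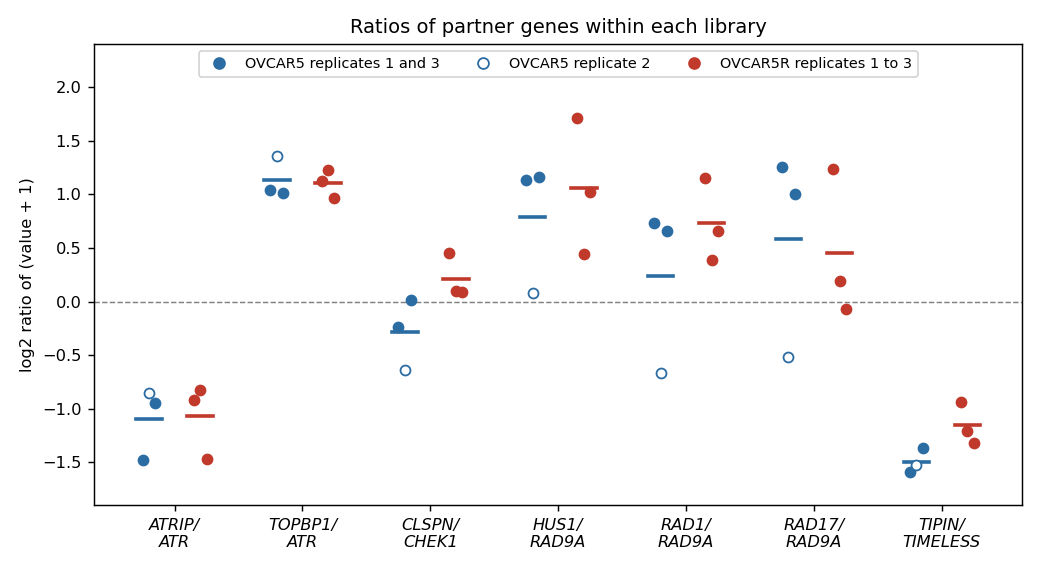
Log2 ratio of normalised values (each + 1) for 7 pairs of partner genes in each library, with symbols as in the plot of the 10 genes and group means as bars. Only the ratios of CLSPN to CHEK1 and of TIPIN to TIMELESS separate the lines, and the 3 ratios to RAD9A place OVCAR5 replicate 2 below the other parental libraries.

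For RAD17, RAD1 and RAD9A, picked after their values were seen, part of the library order was shared with neighbouring genes on the same chromosome. For each of the 10 genes, the tested genes within 5 Mb on either side were summarised by their median deviation from the mean of the 3 OVCAR5 libraries. Deviations of the 10 genes themselves are from the mean of the 6 libraries. These baselines differ, so the order of the libraries can be compared but not the size of the values. The 43 neighbours of RAD17 on chromosome 5 had medians of 0.06, −0.22 and 0.17 in OVCAR5 and 0.37, −0.26 and −0.42 in OVCAR5R. RAD17 itself deviated by 0.47, −0.27 and 0.37 and by 0.26, −0.28 and −0.54. The neighbours and RAD17 were thus both lower in OVCAR5 replicate 2 and in OVCAR5R replicates 2 and 3 than in the other 3 libraries. Their median difference between the lines was −0.16, and 26 of the 43 were lower in OVCAR5R. It was −0.25 without OVCAR5 replicate 2 and 0.06 without OVCAR5R replicate 3.

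RAD1 lies on the other arm of chromosome 5. Both RAD1 and its 26 neighbours were lowest in OVCAR5 replicate 2 and next lowest in OVCAR5R replicate 2. The medians of the neighbours were 0.19, −0.33 and 0.07 in OVCAR5 and 0.21, −0.11 and 0.19 in OVCAR5R. RAD1 itself, on its own baseline, deviated by −0.03, −0.39 and 0.05 and by 0.21, −0.06 and 0.22. The 188 neighbours of RAD9A had their highest median, 0.26, in OVCAR5 replicate 2, where RAD9A deviated by 0.76. In the other 5 libraries their medians lay between −0.16 and 0.05. CHEK1, ATR and TOPBP1 were likewise lowest in OVCAR5 replicate 2 together with their neighbours. TIMELESS, CLSPN, ATRIP and HUS1 had their lowest value in another library than their neighbours. TIMELESS was lowest in OVCAR5 replicate 2, where its 112 neighbours had their highest median, 0.15. The part of regional shifts in the values of the 10 genes was not tested.

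Between the lines, the median difference was 0.14 for the 42 neighbours of CHEK1, 0.18 for the 94 of CLSPN and 0.13 for the 27 of ATR. These medians were 0.05, 0.17 and 0.05 without OVCAR5 replicate 2. It lay between −0.06 and 0.07 for those of ATRIP, TOPBP1, RAD9A, HUS1, RAD1 and TIMELESS. Of the CLSPN neighbours 69 were higher and 25 lower in OVCAR5R, and CLSPN itself exceeded their median by 0.59. The 10 genes had 26 to 188 tested neighbours each. A single one among all these neighbours passed the test over all genes, where 0.119% of all genes tested passed. This was SLC37A2 near CHEK1, named after its value was seen, which fell from 39.4, 83.8 and 60.5 in OVCAR5 to 5.30, 10.5 and 7.70 in OVCAR5R (limma adjusted p = 0.0300).

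CHEK1 and CLSPN were high and low in much the same libraries as S phase and G2/M genes. The 43 genes of an S phase list, which includes CLSPN, were taken as deviations from the mean of the 3 OVCAR5 libraries. Their medians were −0.09, −0.26 and 0.29 in OVCAR5 and 0.40, 0.17 and 0.26 in OVCAR5R. From the mean of the 6 libraries, CHEK1 deviated by −0.22, −0.54 and 0.35 and by 0.26, −0.01 and 0.16. On that same baseline CLSPN deviated by −0.42, −1.14 and 0.40 and by 0.75, 0.13 and 0.29. Because the baselines of list and genes differ, only the order of the libraries is compared. CHEK1, CLSPN and the list were all lowest in OVCAR5 replicate 2 and next lowest in OVCAR5 replicate 1. A G2/M list, on the baseline of the S phase list, had the same order at the low end. Its medians were −0.02, −0.32 and 0.34 in OVCAR5 and 0.45, 0.17 and 0.23 in OVCAR5R. RAD9A (0.76 in OVCAR5 replicate 2), RAD17 (−0.54 in OVCAR5R replicate 3) and HUS1 (−0.44 in OVCAR5R replicate 2) did not follow the S phase list. Of the S phase genes 34 of 43 were higher in OVCAR5R, with a median of 0.29 (0.13 without OVCAR5 replicate 2), and 0 passed the test. Of 54 G2/M genes 44 were higher, with a median of 0.26 (0.08 without that library), and again 0 passed. At an unadjusted p below 0.05 the counts were 5 of 43 and 3 of 54, against 10.4% of all genes tested. The part of cell-cycle phase in the differences of CHEK1 and CLSPN was not tested.

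**Figure D4:**
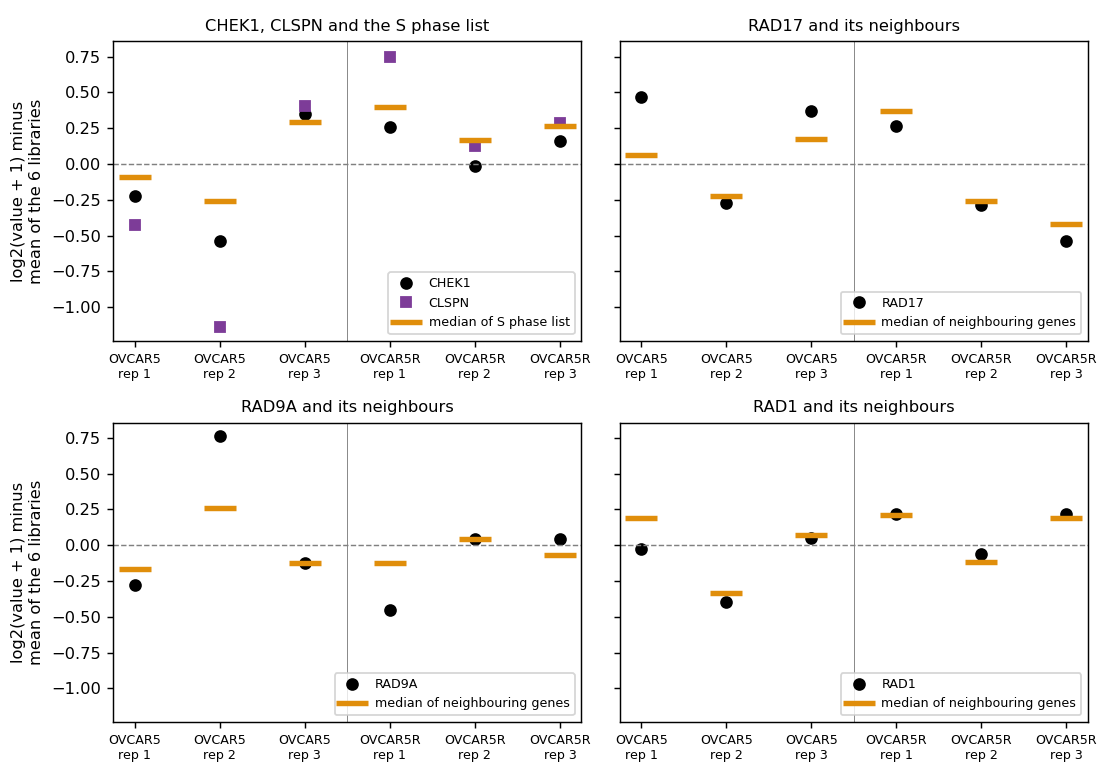
Deviation of log2(value + 1) by library for CHEK1 and CLSPN beside the median of the S phase list, and for RAD17, RAD9A and RAD1 beside the median of the tested genes within 5 Mb. The single genes are shown from the mean of the 6 libraries, as the axis label states. The medians are shown from the mean of the 3 OVCAR5 libraries, so the heights of genes and medians are not directly comparable. RAD17 and its neighbours are low in OVCAR5 replicate 2 and OVCAR5R replicates 2 and 3, and RAD9A and its neighbours are highest in OVCAR5 replicate 2. The 3 genes shown with neighbours were picked after their values were seen.

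The genes most like CHEK1 across the 6 libraries were RFC3 (Pearson r = 0.999), TARDBP (0.994), NOP14 (0.990), SKA3 (0.988) and FANCI (0.988). RFC3 is a subunit of the replication clamp loader, SKA3 a kinetochore protein and FANCI a Fanconi anaemia protein. TARDBP and NOP14 ranked above SKA3 and FANCI. A shared function of the 5 genes was not tested, and none of them is on the S phase list. RFC3 read 37.6, 30.2 and 57.7 in OVCAR5 and 54.3, 43.9 and 49.0 in OVCAR5R. Among the other 9 genes, ATRIP (r = 0.965, place 47 of all genes tested) and CLSPN (r = 0.963, place 54) had the patterns nearest to that of CHEK1. RAD1, TOPBP1, ATR and TIMELESS followed at 0.871, 0.859, 0.825 and 0.793. HUS1 (0.482) and RAD17 (0.227) were less alike, and RAD9A ran opposite (−0.720). Without OVCAR5 replicate 2 the r of ATRIP was 0.987 and that of CLSPN 0.897, whereas ATR dropped to 0.525 and RAD9A stood at −0.05. The same 6 libraries underlie every r, and the values only describe likeness.

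The wider pathway was read through 6 lists with 41 genes, all of which were tested. None passed the test, and 2 of 41 (WDHD1 and CDC7) had an unadjusted p below 0.05, against 10.4% of all genes tested. By mean, 29 were higher and 12 lower in OVCAR5R, with a median of 0.17 (0.04 without OVCAR5 replicate 2). For 9 genes the resistant libraries all lay above the parental ones and for 0 genes below, against the 8.4% and 8.18% of all genes given above. OVCAR5 replicate 2 was the lowest library for 23 of the 41. The lists were chosen with earlier results of these libraries known, so their direction is not independent evidence.

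Among the 7 genes of sensing and clamp loading, 5 were higher, with a median of 0.29 (0.25 without OVCAR5 replicate 2). RPA1, the large subunit of the single-strand binding protein, read 121, 105 and 145 in OVCAR5 and 157, 169 and 165 in OVCAR5R, a log2 difference of 0.41 (SE 0.20, adjusted p = 0.507) that was 0.30 without OVCAR5 replicate 2. The libraries did not overlap, and the same held for RPA2, whose difference was 0.32. The small subunit RPA3 had the lowest difference of the list at −0.31 (SE 0.25), with overlapping libraries. Of the 4 clamp loader subunits, RFC3, RFC4 and RFC5 were higher by 0.27 to 0.39 and RFC2 was at −0.20.

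The 4 fork mediators had the highest median of the 6 lists, 0.51 (0.39 without OVCAR5 replicate 2). WDHD1 (AND-1), which couples the helicase to the polymerases and acts with claspin, read 64.2, 47.2 and 88.9 in OVCAR5 and 120, 108 and 143 in OVCAR5R. All resistant libraries exceeded all parental ones, with a difference of 0.92 (SE 0.26, adjusted p = 0.306) that was 0.70 without OVCAR5 replicate 2. CDC7, the kinase that fires origins, differed by 0.58 (SE 0.24, adjusted p = 0.460), again without overlap, and by 0.45 without OVCAR5 replicate 2. DBF4, its regulatory subunit, differed by −0.05 (SE 0.29).

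The other lists were near 0 or mixed. Of 5 other activators 2 were higher, from RHNO1 (RHINO, a partner of the clamp and TOPBP1) at 0.27 to the MRE11 complex subunit RAD50 at −0.25. In the list of kinase stability and turnover 10 of 12 were higher, with a median of 0.17 (8 of 12 and 0.06 without OVCAR5 replicate 2), and PLK1, a mitotic kinase that marks claspin for destruction, was the lowest at −0.09. The highest, the ubiquitin ligase subunit FBXO6, stood at 0.90 (SE 0.62) but on values of 0.481 to 8.58. In the parallel checkpoint list 6 of 8 were higher, from the ubiquitin ligase RNF8 at 0.45 (SE 0.22) to the ATM-branch kinase CHEK2 at −0.18 (SE 0.35). Only 3 of these 8 were higher without OVCAR5 replicate 2, and the median went from 0.13 to −0.03. The CHK1 substrates were split, with CDC25A at 0.62 (SE 0.29, adjusted p = 0.503) and CDC25B at −0.21 (SE 0.31). They were 0.46 and −0.53 without OVCAR5 replicate 2, and all resistant values of CDC25B then lay below the parental ones, whereas without OVCAR5 replicate 3 CDC25B was at −0.03. The list's median was 0.03, and −0.13 without OVCAR5 replicate 2. CDC25A read 19.7, 18.9 and 37.2 in OVCAR5 and 40.8, 32.1 and 40.5 in OVCAR5R, and OVCAR5 replicate 3 alone of the parental libraries reached the resistant range.

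**Figure D5:**
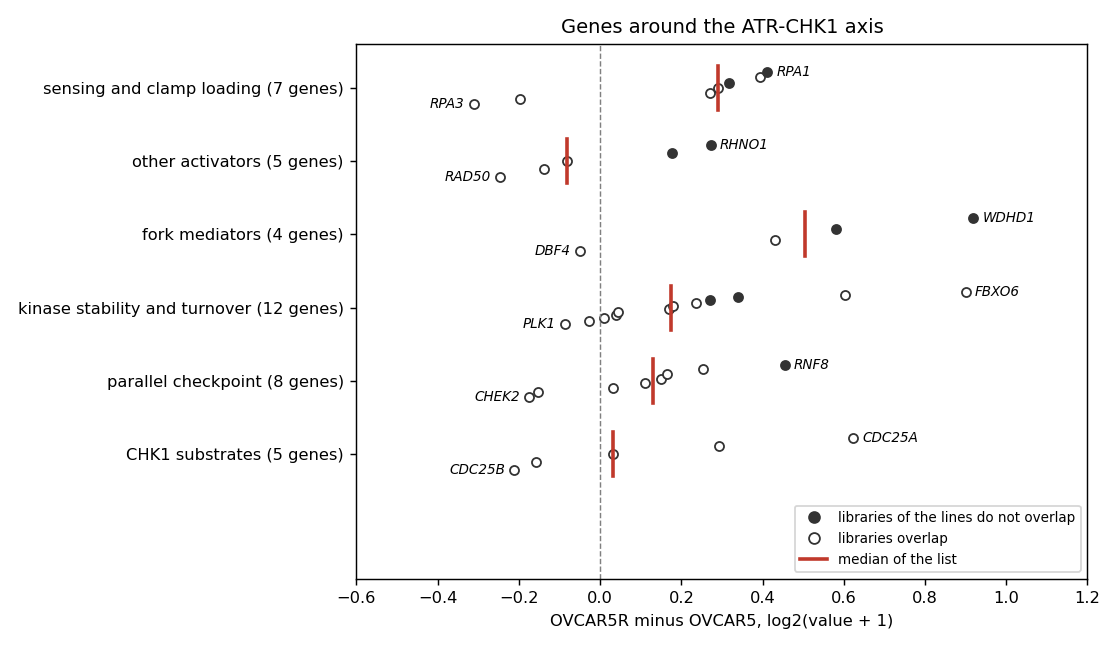
Difference between OVCAR5R and OVCAR5 on the log2(value + 1) scale for 41 genes around the axis, grouped in 6 lists, with filled circles where the libraries of the lines do not overlap, open circles where they do, and a red bar at each list's median. The 9 filled circles all lie to the right of 0, the farthest being WDHD1 at 0.92.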

How the data were processed

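Total RNA was sequenced from 3 cultures each of OVCAR5 and OVCAR5R, and groups and replicate numbers follow the labels. The authors deposited 1 table of normalised signal per gene on a linear scale, described in their methods as quartile normalised, and the submitters' processing notes name hg38. The aligner, counter and annotation are not given in the sources used here. Its 12309 rows held 1 exact copy, which was removed, and 0 columns belonged to other samples. The upper quartile of the listed genes lay between 73.5 and 76.8 in all libraries. Whole reads were recovered for only part of the genes, so no count model was used. Depth, estimated from the size of 1 read, was 35.8 to 41.3 M reads in the OVCAR5 libraries and 50.3 to 55.1 M in the OVCAR5R libraries. Every resistant library was thus deeper than every parental one, and OVCAR5 replicate 2 was the shallowest. Intervals reflect the spread between cultures.

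Genes reaching 1 in 3 or more libraries were fitted in limma 3.58.1 (R 4.3.3; lmFit, eBayes with trend) on log2(value + 1), a scale that understates changes of low genes, and p-values were adjusted by Benjamini-Hochberg over all 11766. Gene positions came from GENCODE 29 (GRCh38), in which 99.4% of symbols were found, promoters from RefSeq, and cell-cycle lists from Seurat 5.3.0. Besides the 10 genes, the rule named the highest and lowest gene of each of the 6 pathway lists, any listed gene that passed, TIPIN and the 5 genes most correlated with CHEK1. Other genes were named after their values were seen. The 10 genes and the lists were chosen with earlier results of these data known. Alternatives were other scalings, filters and pseudocounts, no variance trend, a replicate block and leaving out each library.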

Additional observations from a re-analysis of the deposited data

How the results depend on the processing

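None of the 10 genes and none of the 41 pathway genes passed the test under any of the 13 alternative fits, that is 7 with all libraries and 6 that each left out a library. The count over all genes was 14, 5 with the replicate block and 0 to 29 when 1 library was left out, lowest without OVCAR5R replicate 3 and highest without OVCAR5 replicate 2. Same-numbered cultures did not deviate together (r = −0.0040, 0.18 and −0.12), and the labels name no shared batch, so the numbers were not taken as pairs. Of 363 values for the 28 named genes under these fits, 351 kept their direction and 12 reversed. DBF4 reversed to 0.0030 with quantile normalization and to 0.014 with equal totals. Leaving out 1 library gave DBF4 a range of −0.27 to 0.17, PLK1 −0.35 to 0.27, CHEK2 −0.46 to 0.16, RAD9A −0.44 to 0.077 and HUS1 −0.14 to 0.25. CLSPN ranged from 0.40 to 1.17, RAD17 from −0.60 to −0.20 and CHEK1 from 0.07 to 0.52, so that OVCAR5 replicates 2 and 3 pulled CHEK1 and CLSPN in opposite directions. Among the ratios, leaving out 1 library gave ATRIP to ATR −0.17 to 0.22, TOPBP1 to ATR −0.089 to 0.082, HUS1 to RAD9A −0.087 to 0.57 and RAD17 to RAD9A −0.68 to 0.21, each crossing 0. CLSPN to CHEK1 stayed at 0.33 to 0.65 and TIPIN to TIMELESS at 0.23 to 0.42. With 1 library left out, neighbourhood medians ranged from 0.053 to 0.15 for CHEK1, −0.081 to −0.0020 for ATRIP and −0.0025 to 0.11 for TOPBP1. They were −0.40 to 0.059 for RAD17, −0.091 to 0.26 for RAD1, −0.096 to 0.091 for RAD9A and 0.014 to 0.21 for ATR. They became 0.14 for TOPBP1 and −0.59 for HUS1 with a window of 2 Mb, the latter over 2 genes. Tests for counts (DESeq2, TMM scaling) were not run because the values are not counts. With 3 cultures per line, the width of the 95% intervals limits each gene on its own, from 0.765- to 1.48-fold for TIMELESS to 0.928- to 3.15-fold for CLSPN.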
